A study of Mus musculus with 12 samples.

Results

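Interferon-stimulated genes, with the STAT and IRF factors that drive them, were followed through RNA-seq of mouse mandibular condyle cells. The set was fixed by gene symbol and held 47 genes, of which 45 had a row in the expression table of 22063 genes. All 45 passed the filter on low counts, while Oas1b and Mx2 are not analysed here. The cells came from newborn mice homozygous for a floxed Plagl1 gene (Plagl1 fl/fl) and were infected with adenovirus at a multiplicity of infection of 100. OI-AdV-CRE-EGFP cells received the virus HBAD-CRE-EGFP, which carries Cre recombinase and the fluorescent protein EGFP, and were then kept for 4 days in osteogenic induction medium. OI-AdV-EGFP cells received the control virus HBAD-EGFP and the same medium. AdV-CRE-EGFP and AdV-EGFP cells received the same viruses and were collected on day 0, without induction medium. Each group had 3 libraries, 12 in all, and the titles say only that they are replicates. Separate cultures or animals are not stated, so p-values measure only how far these libraries vary, perhaps for technical reasons. The medium held 5 mM b-glycerophosphate, 50 ug/ml ascorbic acid and 100 nM dexamethasone, a glucocorticoid. Every library came from infected cells, so no level without adenovirus is analysed here. Induction medium, 4 days in culture and the longer time since infection differ together between the induced and day 0 groups and cannot be told apart.

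Interferons are secreted proteins that cells release when they sense viral or misplaced nucleic acid. Type I interferon binds the receptor IFNAR and activates the kinases JAK1 and TYK2, which phosphorylate STAT proteins. STAT2 acts with IRF9 in ISGF3, a complex that binds the interferon-stimulated response element (ISRE) in promoters and switches on genes that block viral replication. IRF7 is itself such a target and drives further interferon production, and several of these genes also keep a basal level in uninfected tissue. In bone, type I interferon is best known as a restraint on osteoclast formation.

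Totals per library ran from 15316989 to 18052040 counts, and common mesenchymal markers were present in all groups. Levels are given as CPM (counts relative to the library total, scaled between libraries by TMM), or as FPKM, per kilobase of transcript, where levels of different genes are set side by side. Plagl1 is the gene that Cre should cut. After induction the libraries labelled OI-AdV-CRE-EGFP held 382, 404 and 368 CPM of it, against 402, 393 and 380 CPM in OI-AdV-EGFP libraries. On day 0 the libraries labelled AdV-CRE-EGFP held 581, 593 and 591 CPM, against 386, 426 and 390 CPM in AdV-EGFP libraries. Its RNA was thus not lower in either group labelled with Cre, and on day 0 it was higher, with a log2 fold change of 0.56 (edgeR adjusted p = 1.8e-10). The groups are named by their labels throughout, and how much of the gene was removed was not measured here. The paper reports reduced PLAGL1 protein, by Western blot after osteogenic induction, in condyle cells given the Cre virus. Reads outside the floxed part would still be counted, and the floxed part was not looked up here.

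One library stood apart most in these genes, though each group held a library that was highest for many of them. OI-AdV-EGFP replicate 1 was the highest of its group for 42 of the 45 genes, with a median deviation from the group mean of 0.28 on the log2(CPM + 1) scale, against 0.002 over all 13670 genes tested. OI-AdV-CRE-EGFP replicate 3 was the highest of its group for 34 genes (median deviation 0.11). AdV-EGFP replicate 2 was so for 34 (0.17) and AdV-CRE-EGFP replicate 3 for 29 (0.10). The genes thus moved together between libraries, so counts of genes below are not counts of independent results. The summed CPM of the 45 genes was 2210, 2220 and 2420 in OI-AdV-CRE-EGFP libraries and 4000, 3140 and 3050 in OI-AdV-EGFP libraries. It was 635, 628 and 700 in AdV-CRE-EGFP libraries and 716, 907 and 831 in AdV-EGFP libraries. Values without OI-AdV-EGFP replicate 1 are given where they end a call or move a named value that passed the test between the viruses by over 1.5 times.

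**Figure D1:**
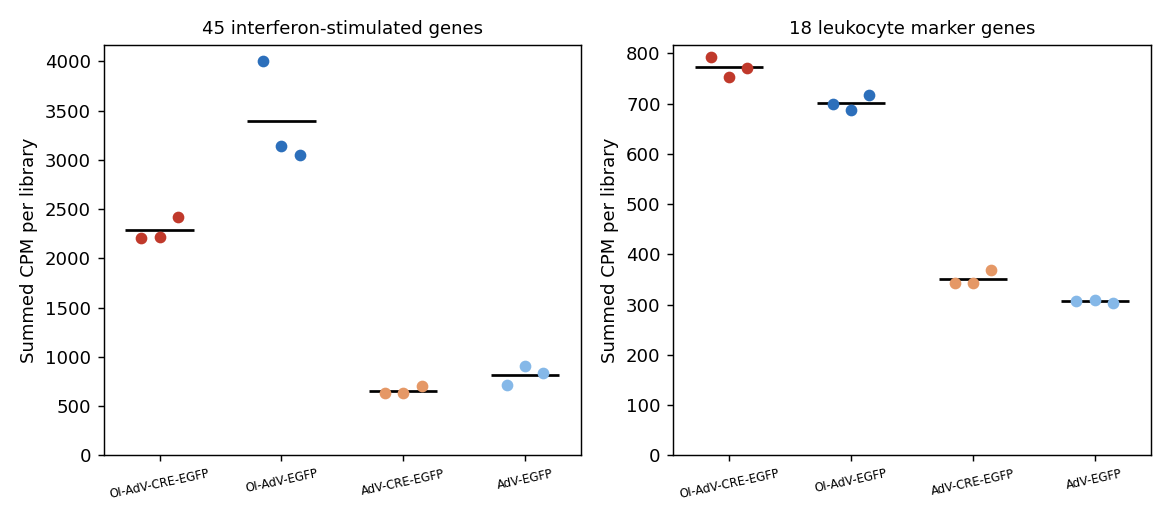
Summed CPM per library (y axis) of the 45 interferon-stimulated genes (left) and of 18 leukocyte marker genes (right) in the 4 groups, where each point is a library and each bar the mean of 3. The interferon-stimulated genes reached 2210 to 2420 CPM in OI-AdV-CRE-EGFP libraries and 3050 to 4000 in OI-AdV-EGFP libraries, while the sum of the leukocyte markers was no lower in the Cre-labelled groups.

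Promoter sequence was looked at because the ISRE is the element these genes are known to share. RefSeq windows, from 250 bases before to 50 bases after the start site, were found for 35 of the 45 genes (41 windows, listed under GRCm38.p6, each matched exactly once in GRCm39). The ISRE core (GAAA, any 2 bases, GAAA) was searched on both strands, with overlapping matches counted. It was present in 19 of the 35 genes (54.3%), and in 3.99% of all 27025 genes with a window. Counted by window, 48.8% of the 41 and 3.44% of 32851 held it. Of the factors themselves, Stat2 held it. A match is a run of letters and no measure of binding.

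Promoters of genes the results turn on are shown, in GRCm39, with ISRE cores in capitals. Isg15 (chr4:156285226-156285525, minus strand) has overlapping cores that start between positions −78 and −66 from the start site, and Ifit1 (chr19:34618039-34618338, plus strand) has separate cores at −104 and −85. Oas1a (chr5:121045539-121045838, minus strand) carries them at −20 and −14, just before the start. Trim30a (chr7:104114351-104114650, minus strand) is shown because it was among the genes that differed most with induction and between the viruses after it. The window shown, of a pair listed for the gene, has 1 core at −36. Oasl2 (chr5:115034745-115035044, plus strand) is shown as a gene also called in those comparisons, with no core in its window.
Isg15: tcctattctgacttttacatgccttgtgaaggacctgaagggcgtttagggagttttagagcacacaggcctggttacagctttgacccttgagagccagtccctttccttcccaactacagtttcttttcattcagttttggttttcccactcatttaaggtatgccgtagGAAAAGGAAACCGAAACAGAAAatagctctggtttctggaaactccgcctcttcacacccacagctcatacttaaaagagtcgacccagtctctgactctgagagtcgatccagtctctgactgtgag
Ifit1: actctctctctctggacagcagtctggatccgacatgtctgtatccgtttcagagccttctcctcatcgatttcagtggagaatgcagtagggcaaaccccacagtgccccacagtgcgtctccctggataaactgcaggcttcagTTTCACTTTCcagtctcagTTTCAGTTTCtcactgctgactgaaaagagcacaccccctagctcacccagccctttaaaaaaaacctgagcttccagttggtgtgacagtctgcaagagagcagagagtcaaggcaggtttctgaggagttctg
Oas1a: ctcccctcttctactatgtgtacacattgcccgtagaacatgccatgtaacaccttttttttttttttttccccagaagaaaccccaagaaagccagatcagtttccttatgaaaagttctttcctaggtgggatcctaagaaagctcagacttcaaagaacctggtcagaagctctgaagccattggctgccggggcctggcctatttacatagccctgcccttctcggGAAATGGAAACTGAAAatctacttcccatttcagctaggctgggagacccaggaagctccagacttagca
Trim30a: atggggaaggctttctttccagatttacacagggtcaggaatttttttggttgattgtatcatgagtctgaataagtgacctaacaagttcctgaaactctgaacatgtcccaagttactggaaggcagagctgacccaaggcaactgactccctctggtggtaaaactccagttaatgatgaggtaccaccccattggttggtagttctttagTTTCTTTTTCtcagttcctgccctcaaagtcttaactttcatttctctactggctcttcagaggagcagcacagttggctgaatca
Oasl2: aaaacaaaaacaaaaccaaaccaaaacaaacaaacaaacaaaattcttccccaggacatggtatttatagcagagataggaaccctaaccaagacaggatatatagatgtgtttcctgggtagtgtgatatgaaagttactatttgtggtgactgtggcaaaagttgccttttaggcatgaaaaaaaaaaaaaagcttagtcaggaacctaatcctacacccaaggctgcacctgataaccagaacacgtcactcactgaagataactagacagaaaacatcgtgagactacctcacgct

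The first question was how these genes changed with osteogenic induction, within cells given the same virus. Most of them rose in both. A gene was called when edgeR's quasi-likelihood test gave a Benjamini-Hochberg adjusted p under 0.05 over all genes tested and the absolute log2 fold change was at least 1. By this rule 38 of 45 genes were called higher in OI-AdV-CRE-EGFP than in AdV-CRE-EGFP cells, a direction in which 12% of all genes tested were called. None was called lower, where 8.62% of all genes were, and none was lower at an unadjusted p under 0.05 by edgeR or called lower by DESeq2 or limma. At an adjusted p under 0.05 alone, 43 were higher (35.9% of all genes). The libraries of the induced group all lay above those of day 0 for 43 genes (37.0% of all genes). The median log2 fold change was 2.41, against 0.02 over all genes, and the values ran from −0.05 to 6.43. In bulk RNA, more cells of an expressing type and more RNA per cell cannot be told apart.

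Cells given the control virus rose as well. In OI-AdV-EGFP over AdV-EGFP, 38 of 45 genes were called higher (15.1% of all genes) and none lower (10.8%), and again none was lower at an unadjusted p under 0.05 by edgeR or called lower by DESeq2 or limma. At an adjusted p under 0.05 alone 44 were higher (39.7%), and for 43 the groups did not overlap (40.1%). The median log2 fold change was 2.58, against 0.05 over all genes, with a range of 0.22 to 6.15. These libraries are separate from those of the Cre virus, and 37 genes were called higher in both. Over all genes, the share called higher in both cannot exceed the 12% called in Cre virus cells.

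**Figure D2:**
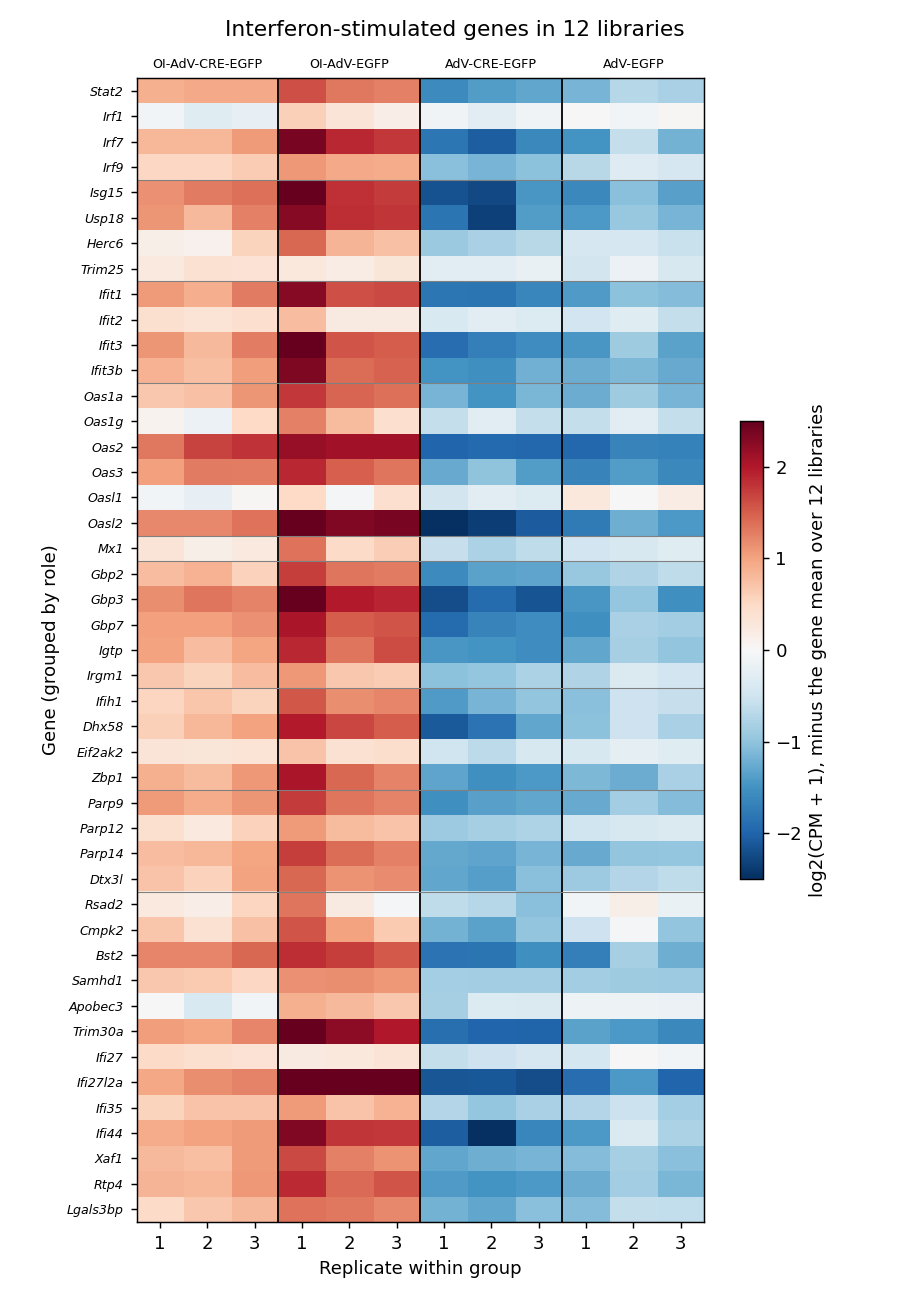
Levels of the 45 genes (rows, grouped by role) in the 12 libraries (columns, by group and replicate), coloured by log2(CPM + 1) minus the mean of the gene over all libraries. Induced groups are red for most genes and day 0 groups blue. OI-AdV-CRE-EGFP is paler than OI-AdV-EGFP, and replicate 1 of OI-AdV-EGFP is the highest library of its group for 42 genes.

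Among the transcription factors, Stat2, a subunit of ISGF3, had 119, 125 and 125 CPM in OI-AdV-CRE-EGFP and 197, 162 and 155 CPM in OI-AdV-EGFP libraries. Its day 0 levels were 20.7, 23.7 and 25.4 CPM in AdV-CRE-EGFP and 28, 38.9 and 36.2 CPM in AdV-EGFP libraries. No induced library overlapped a day 0 library, and within each time the Cre-labelled libraries were all the lower ones. The log2 fold change with induction was 2.40 in Cre virus cells (standard error 0.10) and 2.32 in control virus cells (standard error 0.09, adjusted p = 1.8e-17 from edgeR). Irf9, the DNA-binding subunit of ISGF3, showed the same order. It had 55.7, 55.7 and 60.1 CPM in OI-AdV-CRE-EGFP and 82.9, 75 and 74.1 CPM in OI-AdV-EGFP libraries, and, on day 0, 18, 16.7 and 18.4 CPM in AdV-CRE-EGFP and 23.2, 30.7 and 28.6 CPM in AdV-EGFP libraries. Its induction came to 1.69 in Cre virus cells and 1.49 in control virus cells, both called. Exons of Irf9 overlap those of Rnf31 in the annotation, and whether the counting used strand is not stated.

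Irf7, the interferon-inducible factor that amplifies interferon production, moved most of the 4 factors. It had 27.3, 27.5 and 32.6 CPM in OI-AdV-CRE-EGFP and 82, 58.2 and 53.7 CPM in OI-AdV-EGFP libraries. On day 0 it had 3.59, 2.84 and 4.24 CPM in AdV-CRE-EGFP and 4.71, 9.58 and 6.05 CPM in AdV-EGFP libraries. Induction gave log2 fold changes of 3.03 (standard error 0.20) in Cre virus cells and 3.25 (standard error 0.17, adjusted p = 4.9e-15 from edgeR) in control virus cells. Exons of Irf7 overlap those of Phrf1 on the other strand. Irf1, a factor also induced by interferon gamma, was the exception. Its levels were 14.8, 12.6 and 13.4 CPM in OI-AdV-CRE-EGFP and 24.2, 19.8 and 17.8 CPM in OI-AdV-EGFP libraries, and, on day 0, 14.7, 12.7 and 14.7 CPM in AdV-CRE-EGFP and 15.6, 14.8 and 16 CPM in AdV-EGFP libraries. Its induction was −0.05 in Cre virus cells (adjusted p = 0.72 from edgeR), with overlapping libraries, and 0.41 in control virus cells (adjusted p = 0.0011), under the fold threshold.

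The 2′-5′-oligoadenylate synthetases, which make the messenger that activates the antiviral nuclease RNase L, gave some of the largest changes. Of the 6 measured, 5 were called higher in each induction, with a median log2 fold change of 3.40 in Cre virus cells and 4.23 in control virus cells. Oas2 had 13, 17.3 and 18.8 CPM in OI-AdV-CRE-EGFP and 24.6, 23.1 and 23.3 CPM in OI-AdV-EGFP libraries, and under 1 CPM in every day 0 library, 0.426, 0.462 and 0.45 in AdV-CRE-EGFP and 0.452, 0.766 and 0.741 in AdV-EGFP. The log2 fold changes were 5.18 (standard error 0.21) in Cre virus cells and 5.16 (standard error 0.19) in control virus cells. Oas2 was thus nearly off before induction in both.

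Oas3 had 7.12, 8.88 and 8.71 CPM in OI-AdV-CRE-EGFP and 13.8, 10.3 and 9.08 CPM in OI-AdV-EGFP libraries. On day 0 it had 0.669, 0.989 and 0.514 CPM in AdV-CRE-EGFP and 0.258, 0.511 and 0.309 CPM in AdV-EGFP libraries, and was the only member of the family with all Cre-labelled libraries above those of the control virus, the closest by 0.514 against 0.511 CPM. Its induction was 3.50 in Cre virus cells and 4.91 in control virus cells. Oas1a, one of several Oas1 copies in the mouse, had 4.95, 5.18 and 7.04 CPM in OI-AdV-CRE-EGFP and 11.7, 9.24 and 8.7 CPM in OI-AdV-EGFP libraries, and, on day 0, 0.669, 0.33 and 0.706 CPM in AdV-CRE-EGFP and 0.581, 1.02 and 0.679 CPM in AdV-EGFP libraries. The induction of Oas1a was 3.31 in Cre virus cells and 3.68 in control virus cells.

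Oas1g, a near copy of Oas1a, was close to the detection limit, with 0.604, 0.37 and 1.13 CPM in OI-AdV-CRE-EGFP and 2.64, 1.63 and 1.03 CPM in OI-AdV-EGFP libraries. On day 0 it was at 0 in 4 of 6 libraries, 0, 0.264 and 0 CPM in AdV-CRE-EGFP and 0, 0.255 and 0 CPM in AdV-EGFP. Its fitted log2 fold changes of 2.94 and 4.26 in Cre virus and control virus cells rest on few reads. They came to 6.56 without AdV-CRE-EGFP replicate 2 and 7.86 without AdV-EGFP replicate 2, the only day 0 libraries with reads, and have standard errors of 0.89 and 0.76. Reads of the Oas1 copies may have been split between them in the authors' counting, and both genes hold counts that are not whole in 6 libraries. Oasl1, an OAS-like protein known in mouse as a restraint on Irf7 translation, was not called, at 0.45 (adjusted p = 0.14) in Cre virus cells and 0.22 (adjusted p = 0.4 from edgeR) in control virus cells.

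Oasl2, an OAS-like gene with ubiquitin-like domains, had 48.4, 49 and 54.4 CPM in OI-AdV-CRE-EGFP and 162, 107 and 111 CPM in OI-AdV-EGFP libraries, and, on day 0, 2.8, 3.23 and 4.11 CPM in AdV-CRE-EGFP and 5.36, 8.24 and 6.98 CPM in AdV-EGFP libraries. No libraries overlapped between any compared groups. Induction gave 3.90 (standard error 0.18) in Cre virus cells and 4.20 (standard error 0.15, adjusted p = 1.7e-18 from edgeR) in control virus cells. Per kilobase, the mean of Oasl2 was 20 ± 1.94 FPKM in OI-AdV-CRE-EGFP and 51.2 ± 13 FPKM in OI-AdV-EGFP cells (SD, n = 3 each), while Oas2 had 4.21 ± 0.808 and 6.62 ± 0.766 FPKM in the same groups.

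Of the other large responders, Ifi27l2a encodes a small mitochondrial membrane protein of the ISG12 family. It had 8.69, 9.99 and 10.7 CPM in OI-AdV-CRE-EGFP and 36.2, 33.8 and 30.8 CPM in OI-AdV-EGFP libraries. On day 0 it had 2, 2 and 1 counts in AdV-CRE-EGFP and 5, 13 and 4 counts in AdV-EGFP libraries, which is 0.122, 0.132 and 0.0642 CPM and 0.323, 0.83 and 0.247 CPM. The induction of 6.43 in Cre virus cells (standard error 0.30) and 6.15 in control virus cells (standard error 0.19) was the highest of the set in both, and rests on these few day 0 counts. Its exons overlap those of Ifi27 on the other strand.

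Trim30a, a TRIM protein known in mouse to restrain inflammatory signalling, had 19.7, 18.7 and 22.2 CPM in OI-AdV-CRE-EGFP and 67.8, 46.1 and 39.3 CPM in OI-AdV-EGFP libraries. Its day 0 levels were 1.7, 1.52 and 1.48 CPM in AdV-CRE-EGFP and 2.97, 2.68 and 2.28 CPM in AdV-EGFP libraries. It rose by 3.68 (standard error 0.22) in Cre virus cells and 4.27 (standard error 0.18) in control virus cells on the log2 scale. Its counts are not whole in 8 libraries.

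Guanylate-binding proteins and immunity-related GTPases attack the vacuoles of intracellular pathogens, and all 5 (Gbp2, Gbp3, Gbp7, Igtp and Irgm1) were called higher in both inductions. Gbp3 led them, with 40.2, 45.6 and 42.5 CPM in OI-AdV-CRE-EGFP and 115, 71.7 and 68.4 CPM in OI-AdV-EGFP libraries. On day 0 Gbp3 had 2.98, 3.89 and 3.15 CPM in AdV-CRE-EGFP and 5.75, 8.49 and 5.37 CPM in AdV-EGFP libraries. Its induction was 3.68 in Cre virus cells (standard error 0.21) and 3.70 in control virus cells (standard error 0.17). In control virus cells the other GTPases ran from 1.36 for Irgm1 to 2.93 for both Gbp7 and Igtp.

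ISG15, the ubiquitin-like modifier, and USP18, the protease that removes it and blunts signalling at IFNAR, rose together. Isg15 had 42.1, 47.4 and 50.2 CPM in OI-AdV-CRE-EGFP and 111, 68.1 and 64.5 CPM in OI-AdV-EGFP libraries, and, on day 0, 3.35, 3.1 and 6.1 CPM in AdV-CRE-EGFP and 5.42, 8.49 and 6.61 CPM in AdV-EGFP libraries. Its induction was 3.48 (standard error 0.22) in Cre virus cells and 3.57 (standard error 0.19) in control virus cells. Usp18 rose by 3.35 and 3.44 in the same order. Herc6, the mouse ligase for ISG15, rose by 1.21 and 1.62. Trim25, a ligase in RNA sensing, was under the fold threshold at 0.59 in each.

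Of the IFIT proteins, IFIT1 binds viral RNA that lacks the host cap modification. Ifit1, Ifit3 and Ifit3b were called higher in both inductions, at 3.11, 3.27 and 3.33 in control virus cells. Ifit2 was not called, at 0.74 in Cre virus cells and 0.91 in control virus cells. Ifit3 and Ifit3b are near copies with counts that are not whole in all 12 libraries, so their separate values are uncertain.

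Of the sensors, Ifih1 (MDA5, which binds long double-stranded RNA) rose by 1.87 in Cre virus cells and 2.08 in control virus cells. Dhx58 (LGP2, which tunes MDA5) rose by 3.06 and 2.75, and Zbp1, a sensor of Z-form nucleic acid, by 3.48 and 3.43. Eif2ak2 (PKR, the kinase that halts translation) was under the fold threshold at 0.84 and 0.85. The ADP-ribosylation group Parp9, Parp12, Parp14 and Dtx3l was called higher in full in both, by 1.32 to 2.65 in control virus cells. Exons of Parp9 and Dtx3l overlap. Mx1, a dynamin-like antiviral GTPase, rose by 1.59 and 1.87, at low levels of 1.08 ± 0.178 FPKM in OI-AdV-CRE-EGFP and 1.92 ± 0.986 FPKM in OI-AdV-EGFP cells (SD, n = 3 each).

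Among the remaining effectors, Bst2 (tetherin), which holds budding virus at the cell surface, rose by 3.14 in Cre virus cells and 2.99 in control virus cells. Samhd1, which breaks down deoxynucleotides, rose by 1.49 and 2.03, and the secreted glycoprotein gene Lgals3bp by 1.85 and 2.05. Xaf1 (a pro-apoptotic protein) gave 2.32 and 2.53, Rtp4 2.52 and 2.82, and Ifi35 1.56 and 1.66, all called. Per kilobase, the most abundant member in induced cells was Lgals3bp, with 134 ± 16 FPKM in OI-AdV-CRE-EGFP and 216 ± 13.2 FPKM in OI-AdV-EGFP cells. On day 0 the highest mean in AdV-EGFP cells was that of Ifi27, another ISG12 gene, with 50.2 ± 2.08 FPKM in AdV-CRE-EGFP and 66 ± 8.56 FPKM in AdV-EGFP cells (SD, n = 3 each). Ifi27 was also among the genes that induction moved least, by 0.94 in Cre virus cells and 0.45 in control virus cells, both under the fold threshold.

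Rsad2 encodes viperin, which makes a chain-terminating nucleotide, and its genomic neighbour Cmpk2 encodes a mitochondrial nucleotide kinase. Rsad2 had 5.68, 5.36 and 7.16 CPM in OI-AdV-CRE-EGFP and 13.3, 5.64 and 4.57 CPM in OI-AdV-EGFP libraries, and, on day 0, 2.62, 2.44 and 1.73 CPM in AdV-CRE-EGFP and 4.39, 5.24 and 4.01 CPM in AdV-EGFP libraries. One library, OI-AdV-EGFP replicate 1, lay far above the others of its group, and the control virus groups overlapped. Its induction was 1.42 in Cre virus cells (adjusted p = 0.00029 from edgeR), where it was called. In control virus cells it was 0.78 (adjusted p = 0.012), under the fold threshold, and 0.16 without that library. Cmpk2 had 7.06, 5.55 and 7.39 CPM in OI-AdV-CRE-EGFP and 13.9, 9.07 and 6.91 CPM in OI-AdV-EGFP libraries, and, on day 0, 1.22, 0.989 and 1.54 CPM in AdV-CRE-EGFP and 2.52, 3.83 and 1.54 CPM in AdV-EGFP libraries. It rose by 2.41 in Cre virus cells and 1.92 in control virus cells.

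Apobec3, a cytidine deaminase that mutates retroviral DNA, had 4.41, 3.14 and 4.11 CPM in OI-AdV-CRE-EGFP and 8.99, 8.48 and 7.61 CPM in OI-AdV-EGFP libraries, and, on day 0, 2.01, 3.23 and 3.21 CPM in AdV-CRE-EGFP and 3.94, 3.9 and 3.83 CPM in AdV-EGFP libraries. It was not called with induction in Cre virus cells (0.47, standard error 0.20) and was called higher in control virus cells (1.10, standard error 0.17), though the difference between these was not past the threshold (adjusted p = 0.087 from edgeR). Exons of Apobec3 overlap those of Cbx7.

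**Figure D3:**
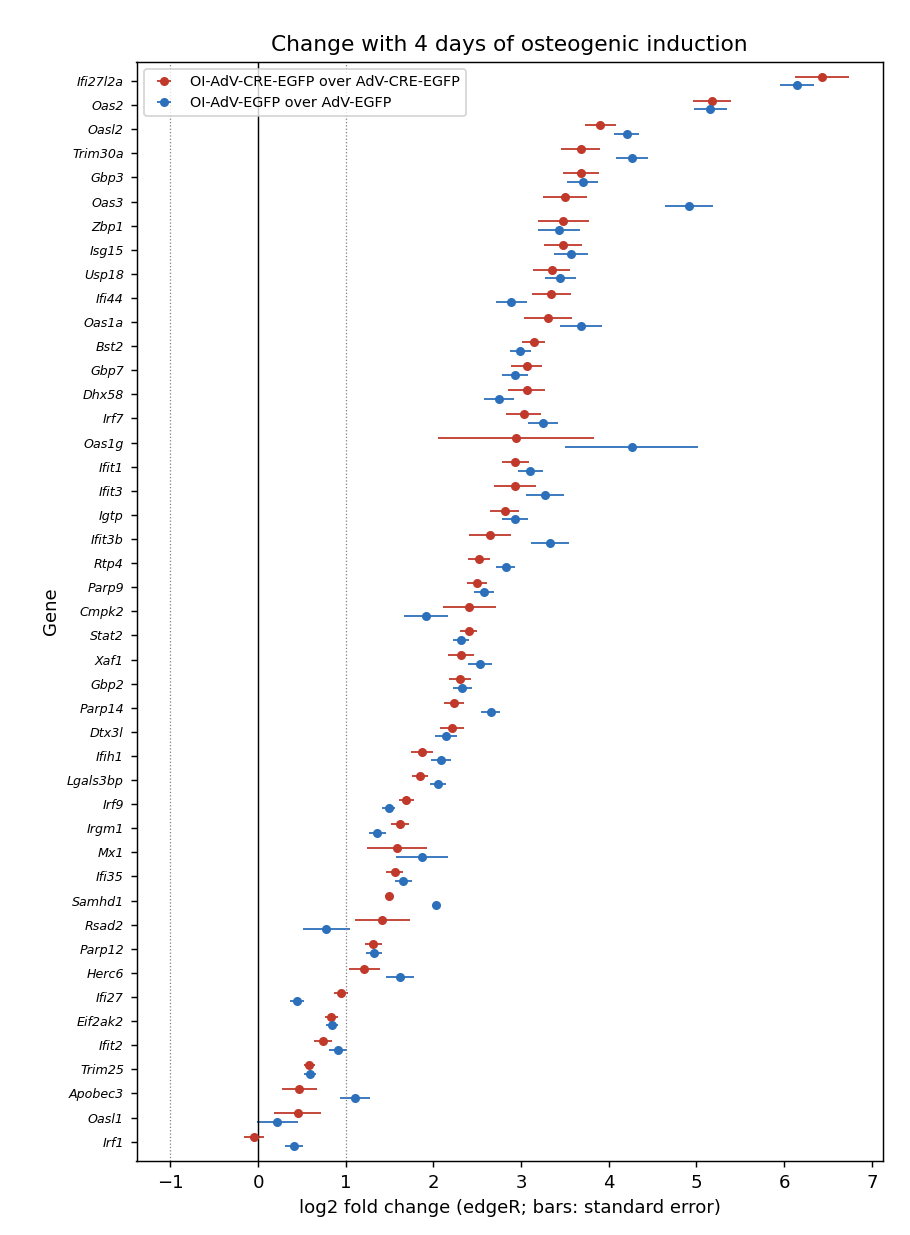
Log2 fold change with 4 days of osteogenic induction (x axis, edgeR, with standard error) for each of the 45 genes (y axis), in Cre virus cells (red, OI-AdV-CRE-EGFP over AdV-CRE-EGFP) and control virus cells (blue, OI-AdV-EGFP over AdV-EGFP). Dotted lines mark −1 and 1, and 38 genes in each comparison were called above 1.

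The second question was how the Cre virus group differed from the control virus group after induction. Nearly the whole set was lower in OI-AdV-CRE-EGFP cells, mostly by less than the fold threshold. The log2 fold change was below 0 for 43 of 45 genes, with a median of −0.68 against −0.01 over all genes and a range of −1.77 to 0.14. At an adjusted p under 0.05 alone, 39 genes were lower (20.6% of all genes tested) and none higher (19.8%). All OI-AdV-CRE-EGFP libraries lay below all OI-AdV-EGFP libraries for 37 genes (26.1% of all genes), and above them for 1 gene, Ifi27 (24.3%). By the full rule 7 genes were called lower (2.61% of all genes) and none higher (2.46%). None was higher at an unadjusted p under 0.05 by edgeR or called higher by DESeq2 or limma. Without OI-AdV-EGFP replicate 1 the median was −0.49, 40 genes were below 0 and 33 were lower by adjusted p. The genes that no longer passed were Oas1g, Oas3, Mx1, Eif2ak2, Cmpk2 and Ifi35. Without it 4 genes were called lower, against 12 without its replicate 3 and 11 without its replicate 2 or without OI-AdV-CRE-EGFP replicate 3.

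The lead gene was Ifi27l2a, at 8.69 to 10.7 CPM in OI-AdV-CRE-EGFP against 30.8 to 36.2 CPM in OI-AdV-EGFP libraries, lower, at −1.77 on the log2 scale (edgeR adjusted p = 4.4e-12, standard error 0.11). Next came Trim30a at −1.33 (standard error 0.13, adjusted p = 1.1e-08) and Oasl2 at −1.32 (standard error 0.11, adjusted p = 5.1e-10). For these the groups did not overlap, and they were called under every alternative setting run, each left-out library included. Irf7 was lower, at −1.15 (standard error 0.13, adjusted p = 1.9e-07). Without OI-AdV-EGFP replicate 1 its value was −0.94, which no longer passed the fold threshold.

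Apobec3 was lower, at −1.10 (standard error 0.17, adjusted p = 9.5e-06 from edgeR), with no overlap, and stood at −0.97 without OI-AdV-CRE-EGFP replicate 2. Ifi44, a cytoplasmic protein of uncertain function that interferon induces, had 34.8, 37 and 38.3 CPM in OI-AdV-CRE-EGFP and 93.6, 64.2 and 63.3 CPM in OI-AdV-EGFP libraries. At −1.004 (standard error 0.15, adjusted p = 5.5e-06) it lay on the fold threshold, fell short of it with DESeq2 and under several left-out libraries, and stood at −0.80 without OI-AdV-EGFP replicate 1. On day 0 Ifi44 had 3.53, 2.11 and 5.14 CPM in AdV-CRE-EGFP and 6, 13.8 and 9.94 CPM in AdV-EGFP libraries, and its induction was 3.35 in Cre virus cells and 2.89 in control virus cells. Oas1g, at −1.31 (standard error 0.51, adjusted p = 0.042), is the weakest of the calls. Its libraries overlapped and the value was −0.90 without OI-AdV-EGFP replicate 1. Its call was also lost without OI-AdV-EGFP replicate 2 or OI-AdV-CRE-EGFP replicate 1 or 2, and with DESeq2.

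**Figure D4:**
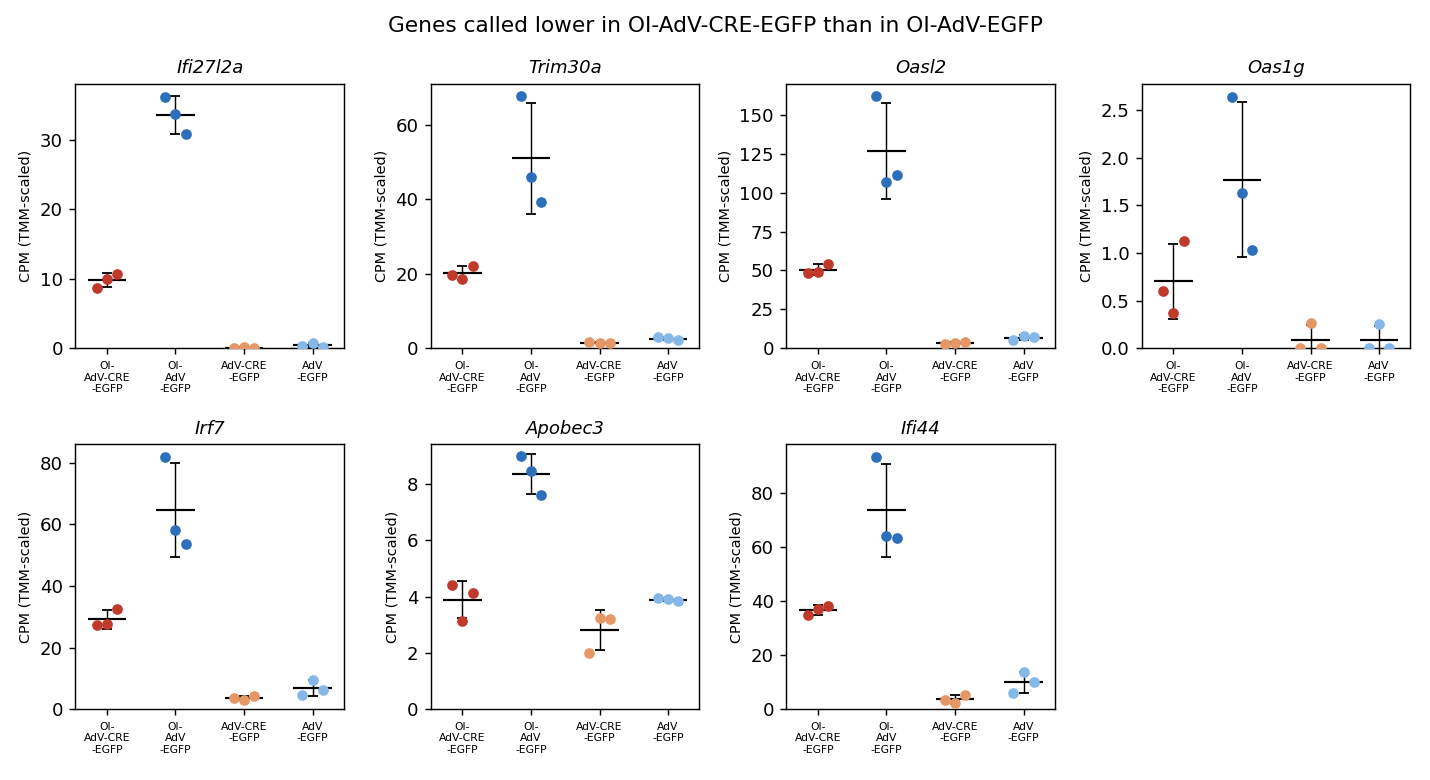
TMM-scaled CPM (y axis) of the 7 genes called lower in OI-AdV-CRE-EGFP than in OI-AdV-EGFP cells, in each of the 12 libraries by group (x axis). Points are libraries, with the mean and SD of 3, and only Oas1g has OI-AdV-CRE-EGFP libraries that overlap those of OI-AdV-EGFP.

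By role, all 4 transcription factors were lower by adjusted p, with Stat2 at −0.48, Irf9 at −0.44 and Irf1 at −0.60 beside Irf7. So were all 4 sensors, although Eif2ak2 was at −0.20 (adjusted p = 0.018 from edgeR), at −0.09 without OI-AdV-EGFP replicate 1, and did not pass without that library or OI-AdV-CRE-EGFP replicate 2. Among the sensors Dhx58 had 13, 15.4 and 17.5 CPM in OI-AdV-CRE-EGFP and 35.6, 28.4 and 25.3 CPM in OI-AdV-EGFP libraries, at −0.96 (standard error 0.14). All 4 genes of the ADP-ribosylation group were lower, at −0.62 for Parp14 to −0.43 for Parp9, which was at −0.26 without OI-AdV-EGFP replicate 1. Of the GTPases 4 of 5 were lower, with Gbp3 at −0.99, and Irgm1 stood at −0.14 (adjusted p = 0.22 from edgeR). Of the IFIT genes 3 of 4 were lower, with Ifit3b at −0.95 (−0.56 without OI-AdV-EGFP replicate 1), and Ifit2 stood at −0.05 (adjusted p = 0.74). Isg15 was lower, at −0.80 (−0.51 without that library), as were Usp18 at −0.95 and Herc6 at −0.79.

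For 6 members the difference did not pass the adjusted p in this comparison. Beside Irgm1 and Ifit2 these were Trim25 at 0.08 (adjusted p = 0.3), Ifi27 at 0.14 (adjusted p = 0.14), Rsad2 at −0.36 (adjusted p = 0.28) and Oasl1 at −0.56 (adjusted p = 0.065, all from edgeR). Ifi27 and Trim25 were the ones with values above 0.

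The third question was whether the Cre virus group already differed on day 0. It did for part of the set and in the same direction. The log2 fold change of AdV-CRE-EGFP over AdV-EGFP was below 0 for 40 of 45 genes, with a median of −0.55 against −0.005 over all genes and a range of −2.06 to 0.99. At an adjusted p under 0.05 alone, 25 genes were lower (13.5% of all genes tested) and none higher (15.8%). The groups did not overlap for 28 genes that were lower (19.5%) and 2 that were higher (21.2%), Oas3 and Samhd1. By the full rule 6 genes were called lower (0.556%) and none higher (2.6%). At an unadjusted p under 0.05 by edgeR 1 gene was higher, Oas3, and DESeq2 and limma called none higher. Without AdV-EGFP replicate 2, the highest of its group for 34 genes, 2 genes were called lower and 15 were lower by adjusted p alone. Without AdV-EGFP replicate 1, the lowest of its group for 31 genes, 10 were called lower.

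Ifi27l2a was lower, at −2.06 (standard error 0.63, adjusted p = 0.015 from edgeR), from the few counts given above, and stood at −1.38 without AdV-EGFP replicate 2. Its call was lost there and without AdV-CRE-EGFP replicate 3. Ifi44 was lower, at −1.46 (standard error 0.28, adjusted p = 0.00024) and kept its call with each library left out in turn. Dhx58 had 1.16, 1.58 and 2.76 CPM in AdV-CRE-EGFP and 3.55, 5.43 and 4.26 CPM in AdV-EGFP libraries, and was lower, at −1.27 (standard error 0.26, adjusted p = 0.0006). Its call also held with each library left out. Those of Cmpk2 at −1.06 (adjusted p = 0.024), Oasl2 at −1.02 (adjusted p = 0.0028) and Rsad2 at −1.001 (adjusted p = 0.023) did not. Without AdV-EGFP replicate 2 the values were −0.71 for Cmpk2 and −0.89 for Oasl2, and both calls were also lost without AdV-CRE-EGFP replicate 1 or 2. The value of Rsad2 was −0.86 without AdV-CRE-EGFP replicate 3, and its call was also lost without AdV-EGFP replicate 2.

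Under the fold threshold, Irf9 was lower, at −0.64 (adjusted p = 5.3e-06), Stat2 by −0.57 (adjusted p = 0.00027) and Irf7 by −0.93 (adjusted p = 0.0077, all from edgeR), while Irf1 stood at −0.14 (adjusted p = 0.38). All 5 GTPases were lower by adjusted p, with Gbp3 at −0.97, Gbp7 at −0.81, Gbp2 at −0.71, Igtp at −0.62 and Irgm1 at −0.41. Igtp did not pass with any 1 of 5 of the 6 day 0 libraries left out, all but AdV-EGFP replicate 1, and Gbp3 did not pass without AdV-EGFP replicate 2 (−0.76). Of the IFIT genes only Ifit1 was, at −0.62, and of the ISG15 group only Usp18, at −0.85. Usp18 did not pass without AdV-CRE-EGFP replicate 1 or 2 or AdV-EGFP replicate 2 or 3, and was at −0.57 without AdV-CRE-EGFP replicate 2. Irf7 did not pass without AdV-EGFP replicate 2 (−0.62). Samhd1 differed little, with 69.7, 69.4 and 69.4 CPM in AdV-CRE-EGFP and 69, 68.2 and 66.9 CPM in AdV-EGFP libraries (0.03, standard error 0.05), although its libraries did not overlap.

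The comparisons after and before induction share no libraries. In both, 21 genes were lower by adjusted p, against 5.15% of all genes tested, and 39 had log2 fold changes below 0, against 32.4%. Oasl2, Ifi27l2a and Ifi44 were the 3 genes called lower in both. Over all genes, the share called lower in both cannot exceed the 0.556% called on day 0.

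**Figure D5:**
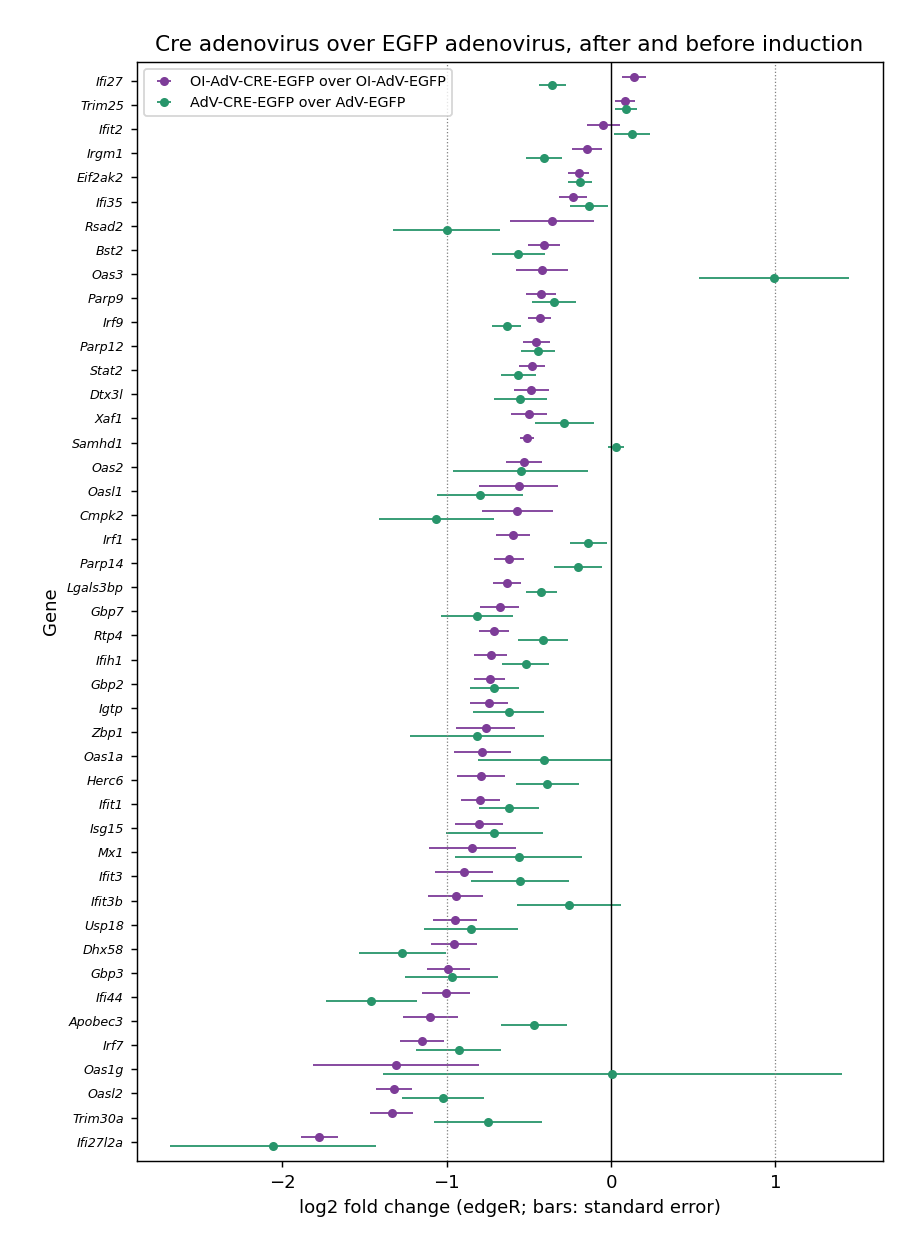
Log2 fold change of the Cre virus group over the control virus group (x axis, edgeR, with standard error) for each gene (y axis), after induction (purple) and on day 0 (green). Dotted lines mark −1 and 1, and 43 genes lie below 0 after induction and 40 on day 0.

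Whether the Cre difference itself changed with induction was tested by the interaction, which is equally the difference between the inductions. At an adjusted p under 0.05, 3 genes were lower (12.1% of all genes tested) and 1 higher (10.7%), with a median over the set of −0.10. Without OI-AdV-EGFP replicate 1 or AdV-EGFP replicate 1 there were 1 gene lower and 3 higher, and without AdV-EGFP replicate 3 there was 1 lower. Past an absolute value of 1 lay only Oas3. Samhd1 gave −0.54 (standard error 0.06, adjusted p = 5.8e-07 from edgeR). It had 202, 200 and 183 CPM in OI-AdV-CRE-EGFP and 282, 283 and 271 CPM in OI-AdV-EGFP libraries, a log2 fold change of −0.51 after induction beside 0.03 on day 0. Irf1 gave −0.46 (standard error 0.15, adjusted p = 0.032) and Oas3 −1.41 (standard error 0.48, adjusted p = 0.036). Ifi27 ran the other way at 0.50 (standard error 0.11, adjusted p = 0.0015). It had 92.9, 87.7 and 85.4 CPM in OI-AdV-CRE-EGFP and 77.2, 79.9 and 84.3 CPM in OI-AdV-EGFP libraries, and, on day 0, 43.5, 46 and 49.1 CPM in AdV-CRE-EGFP and 48.4, 65.7 and 63.1 CPM in AdV-EGFP libraries, which is 0.14 after induction and −0.36 on day 0. For the other 41 genes no difference between the day 0 and the induced Cre effect passed the threshold.

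The rest of the pathway was read from lists of its parts. Interferon genes themselves were almost without reads. Of 21 in the table, 15 had 0 counts in all 12 libraries and none passed the filter on low counts. Ifnz had 75 counts over all libraries, Ifnb1, the interferon that fibroblasts are known to make first, had 5, and Ifng had 1. Summed over the 21 genes, each group's 3 libraries held 24 counts in OI-AdV-CRE-EGFP, 30 in OI-AdV-EGFP, 18 in AdV-CRE-EGFP and 19 in AdV-EGFP. At this depth no difference in interferon RNA was detectable.

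Receptor and kinase RNA moved by less than the fold threshold. The largest change with induction was that of Ifngr1, 0.93 in control virus cells and 0.78 in Cre virus cells. Of 8 genes tested none was called in either induction or Cre comparison, by edgeR, DESeq2 or limma. Over all genes, an unadjusted p under 0.05 was reached by 37% (higher) and 36.2% (lower) with induction in Cre virus cells, by 40.3% and 37.2% in control virus cells, by 23.6% and 24.6% between the viruses after induction, and by 20.5% and 18.6% on day 0. Of the 8 genes, 5 were higher and 3 lower with induction in Cre virus cells, 4 higher and none lower in control virus cells, 1 higher and 3 lower between the viruses after induction, and 2 higher and 1 lower on day 0. In control virus cells induction gave 0.12 for Ifnar1 and 0.13 for Ifnar2, the type I receptor chains, and −0.01 for Jak1, 0.34 for Tyk2 and −0.09 for Jak2, the kinases. The type II receptor chains had 0.93 for Ifngr1 and 0.03 for Ifngr2, and Il10rb, a chain of the type III receptor, had 0.32. The interaction was below 0 with an adjusted p under 0.05 for Ifnar1 (−0.35) and Jak1 (−0.22).

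Of 5 further STAT and IRF genes (Stat3, Irf2, Irf3, Irf5 and Irf8), Irf5 was called, in Cre virus cells with induction (1.02). Irf2 had an interaction of −0.50 (adjusted p = 0.0062 from edgeR).

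Of 13 nucleic acid sensing genes tested, 4 were called higher and none lower with induction in Cre virus cells, where 1 was lower at an unadjusted p under 0.05 by edgeR and none was called lower by DESeq2 or limma. These were Ifi204 (a DNA sensor of the p200 family) at 2.48, Tlr7 at 1.88, Rigi (which senses viral RNA ends) at 1.55 and Tlr3 at 1.54. In control virus cells 5 were called higher, Ifi204 at 2.67, Tlr3 at 1.94, Tlr7 at 1.89, Rigi at 1.63 and the kinase Ikbke at 1.25. The adaptor Traf3 was called lower there, at −1.10. Between the viruses none was called by edgeR, DESeq2 or limma. At an unadjusted p under 0.05, where the shares over all genes were those given above, 5 of 13 were lower and 2 higher after induction, with Ifi204 at −0.85, and 5 were lower and none higher on day 0. These counts are small and say nothing particular about the list. The interaction passed the threshold for Ikbke (−0.42), Sting1 (0.39) and Traf3 (0.55). None of 6 negative regulators of the pathway was called in those comparisons by edgeR, DESeq2 or limma. By the same measure 1 of the 6 was higher and 3 lower with induction in Cre virus cells and 2 higher and 4 lower in control virus cells. Between the viruses 1 was higher and 2 lower after induction, and 1 higher and 1 lower on day 0. Socs1, the classical feedback inhibitor of JAK kinases, stood at −0.69 with induction in control virus cells, and the interaction passed for Pias1 (−0.50) and Ptpn11 (0.15).

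Markers of other cells were summed beside these results. The 18 leukocyte markers came to 753 to 793 CPM in OI-AdV-CRE-EGFP and 687 to 718 CPM in OI-AdV-EGFP libraries, and on day 0 to 343 to 369 CPM in AdV-CRE-EGFP and 304 to 309 CPM in AdV-EGFP libraries. They thus rose with induction. In control virus cells 8 of 14 tested were called higher (15.1% of all genes) and none lower (10.8%). In Cre virus cells 7 were called higher (12%) and none lower (8.62%). The median log2 fold change of the 14 was 1.05 in control virus cells and 0.99 in Cre virus cells. C1qa rose most, by 4.26 and 4.88 in the same order, while Lyz2 rose by 0.88 and 0.79. Itgam stood at 0.09 and −0.07. The part of these markers in the induction of the interferon-stimulated genes was not tested. Between the viruses their sum ran opposite to that of those genes, with no library of a Cre virus group below one of its control. Lyz2 was the largest part of the sum, with means of 405 CPM in OI-AdV-CRE-EGFP and 381 CPM in OI-AdV-EGFP cells. Singly, by adjusted p, 3 of 14 leukocyte markers tested were higher (19.8% of all genes) and none lower (20.6%) after induction. On day 0, 6 were higher (15.8%) and none lower (13.5%). Siglech, a marker of plasmacytoid dendritic cells, was at 0 in every library and the T cell marker Cd3e at 0 in 3 of the 4 groups. The 7 endothelial markers summed to 34.2 to 37.9 CPM in OI-AdV-CRE-EGFP and 17.4 to 20.6 CPM in OI-AdV-EGFP libraries, and on day 0 to 20.3 to 26.5 CPM in AdV-CRE-EGFP and 4.88 to 6.65 CPM in AdV-EGFP libraries. Kdr made up most of the sum after induction, with means of 30.7 CPM in OI-AdV-CRE-EGFP and 11.8 CPM in OI-AdV-EGFP cells. Tek ran the other way, at 1.65 and 5.36 CPM. Between the viruses after induction, 2 of 5 tested were called higher (2.46% of all genes) and 1 lower (2.61%). On day 0, 3 were called higher (2.6%) and none lower (0.556%). The 6 epithelial markers summed to 6.94 to 7.51 CPM in OI-AdV-CRE-EGFP and 2.01 to 2.56 CPM in OI-AdV-EGFP libraries, and on day 0 to 8.18 to 8.61 CPM in AdV-CRE-EGFP and 1.16 to 3.4 CPM in AdV-EGFP libraries. Krt18 made up most of the Cre virus sums, with means of 5.25 CPM in OI-AdV-CRE-EGFP and 7.27 CPM in AdV-CRE-EGFP cells. Its means were 0.206 CPM in OI-AdV-EGFP and 0.402 CPM in AdV-EGFP cells. Cdh1, the only other one tested, ran the other way after induction, at 1.11 CPM in OI-AdV-CRE-EGFP and 1.78 CPM in OI-AdV-EGFP cells. The 12 mesenchymal markers summed to 30200 to 30500 CPM in OI-AdV-CRE-EGFP and 33900 to 36400 CPM in OI-AdV-EGFP libraries, and on day 0 to 21300 to 22300 CPM in AdV-CRE-EGFP and 23300 to 24000 CPM in AdV-EGFP libraries. The sum was thus lower in both Cre virus groups, but the markers did not move together. By adjusted p, 8 of 12 were lower (20.6% of all genes) and 2 higher (19.8%) after induction. Vim and Pdgfrb were the higher ones. On day 0, 5 were lower (13.5%) and 7 higher (15.8%), with a median log2 fold change of 0.18. On day 0 the collagens Col3a1, Col1a1 and Col1a2 were lower, at −0.55, −0.23 and −0.23, while Postn and Dcn were higher, at 0.78 and 0.74. The part of these marker differences in the lower interferon-stimulated genes was not tested.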

How the data were processed

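RNA of 12 libraries was measured, 3 in each of 4 groups, with groups taken from the sample titles. Per the labels and methods, the NEBNext Ultra II kit was used, Cutadapt trimmed the reads, HISAT2 placed them on GRCm39, and HTSeq did the counting. Values deposited by the authors are estimated counts, unscaled, and between 1646 and 1844 genes per library, 13 of the 45 members among them, have values that are not whole. The authors also deposited FPKM values. Annotation release and strand setting are not given in the sources used here.

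After rounding, the fit used edgeR 4.0.16 in R 4.3.3 (TMM, filterByExpr, quasi-likelihood F test), with 4 group means in 1 fit of 13670 genes. The common biological coefficient of variation was 0.0472, and adjusted p-values are Benjamini-Hochberg over all 13670. The script was tested on simulated data. Libraries of a group differed by more than sampling noise (chi-square per gene of 2.18 to 5.24), so each was used once. Alternatives were other size factors, DESeq2 1.42.0, no filter, only the compared groups, a replicate block, limma 3.58.1 on log2(FPKM + 1) or log2(FPKM + 0.1) and leaving out each library.

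Gene positions come from GENCODE vM39 by Ensembl ID (all 45 matched) and promoters from RefSeq. Exons of 9 members overlap another gene, namely Irf7, Irf9, Igtp, Parp9, Dtx3l, Apobec3, Ifi27, Ifi27l2a and Ifi35. Values in every library are given for members called between the viruses, the 8 with the largest induction in control virus cells and the 4 transcription factors, and for Isg15, Samhd1 and Ifi27, chosen after their values were seen. The members and lists were chosen with earlier results of these data known. Part of the pathway lists is not reported here.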

Additional observations from a re-analysis of the deposited data

Results flagged for a closer look

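Genes whose Cre effect differed between the induced and the day 0 cells are listed by the interaction in edgeR, over 13670 genes. Samhd1 had an interaction of −0.54 log2 (standard error 0.06, adjusted p = 5.8e-07). It was lower in all 3 OI-AdV-CRE-EGFP than in all 3 OI-AdV-EGFP libraries, and stayed past the threshold in every alternative that gave a value. Ifi27 had 0.50 (standard error 0.11, adjusted p = 0.0015) and also stayed past it. It was lower in Cre virus cells on day 0, at −0.36 (adjusted p = 0.0014). After induction it was higher in all 3 Cre virus libraries, but its 0.14 did not pass (adjusted p = 0.14, all from edgeR). Oas3 had −1.41 (adjusted p = 0.036) at under 1 CPM on day 0. Irf1 had −0.46 (adjusted p = 0.032). Oas3 and Irf1 lost the threshold in several alternatives. Over all alternatives the adjusted p ran up to 0.22 for Oas3 and 0.25 for Irf1.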

How the results depend on the processing

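No member value that passed an adjusted p under 0.05 in the edgeR fit of all 12 libraries changed direction under any alternative. Values that did not pass were not checked in this way. Between the viruses after induction, 43 genes were below 0, and 40 without OI-AdV-EGFP replicate 1. With a library left out, 38 to 39 genes were called higher with induction in Cre virus cells and 38 to 40 in control virus cells. With limma on log2(FPKM + 1) there were 34 in Cre virus cells and 35 in control virus cells. Counts between the viruses moved with libraries and scale. After induction the number called lower was 4 to 12 with a library left out, lowest without OI-AdV-EGFP replicate 1 and highest without OI-AdV-EGFP replicate 3, and 4 with limma on log2(FPKM + 1), with or without the filter. By adjusted p alone 33 to 39 were lower and 0 to 1 higher with a library left out, and 1 was higher with no filter on low counts and with only the compared groups. On day 0 the number called lower was 2 to 10 with a library left out, lowest without AdV-EGFP replicate 2 and highest without AdV-EGFP replicate 1, and 0 with limma on log2(FPKM + 1), with or without the filter. By adjusted p alone 15 to 30 were lower with a library left out, and 16 with limma on log2(FPKM + 1) without the filter. For the interaction 1 to 3 genes were higher and 1 to 4 lower with a library left out. No filter on low counts gave 4 higher and 6 lower, and limma on log2(FPKM + 0.1) gave 1 lower. A pseudocount of 1 shrinks the folds of genes with low FPKM. The other causes were not tested. Scaling by other size factors or library totals moved the median of all genes by under 0.1 log2.

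Replicate numbers did not pair the libraries. Deviations of libraries with the same number correlated at −0.0896 to 0.0615, against −0.0927 to 0.106 for other numbers. With a replicate block, 38 genes were called higher in each induction, 5 were called lower between the viruses after induction and 6 on day 0, and 3 were lower and 1 higher in the interaction. Low counts limit Oas1g, Oas3 and Ifi27l2a on day 0.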
